A study of Mus musculus with 4 samples.

Results

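The 9 genes described here encode the subunits of the AMPA receptors (Gria1 to Gria4) and the kainate receptors (Grik1 to Grik5), ion channels opened by glutamate. They were read on all probe sets with 1 of these 9 names as the gene symbol in the platform annotation, which gave 18 of the 45101 probe sets on the array. Total RNA from freshly dissected dorsal root ganglia of mice, the clusters of sensory neuron cell bodies beside the spinal cord, had been measured on 4 Affymetrix arrays. The labels place 2 arrays at one level of ganglia (the sample-1 level) and 2 at the other (the sample-2 level), without naming the levels. The sources used here give neither strain, age or sex nor the number of animals. They do not say that the 2 arrays of a level hold RNA of different animals. Each p-value therefore rests on a spread among 4 arrays that could be technical. The fit takes that spread in part from other probe sets of similar intensity.

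AMPA and kainate receptors are tetramers that carry fast excitatory transmission. AMPA receptors mediate most of it at central synapses, and editing of the Gria2 transcript makes the channels that contain its product almost impermeable to calcium. Among kainate receptors, the products of Grik1, Grik2 and Grik3 form channels by themselves, while those of Grik4 and Grik5 need a partner from that group. In dorsal root ganglia Grik1 is the best-known subunit, carried by small-diameter neurons, and receptors of both kinds can be sent to the central terminals in the spinal cord.

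RefSeq promoter entries (GRCm38.p6) were found for 6 of the 9 genes, Gria2, Gria4, Grik2, Grik3, Grik4 and Grik5. The 250 bases upstream of the annotated start are shown for Grik3 and Grik5, 2 kainate subunits with sample-2 arrays above sample-1 arrays, and for Grik4 and Gria4, whose brightest probe sets differed least between the levels. They lie at chr4:125490446-125490695 on the plus strand for Grik3 and, on the minus strand, at chr7:25072370-25072619 for Grik5, chr9:42944372-42944621 for Grik4 and chr9:4796235-4796484 for Gria4. Each is written 5′ to 3′ on the strand of its gene, and capitals mark the GC box GGGCGG on either strand.
Grik3: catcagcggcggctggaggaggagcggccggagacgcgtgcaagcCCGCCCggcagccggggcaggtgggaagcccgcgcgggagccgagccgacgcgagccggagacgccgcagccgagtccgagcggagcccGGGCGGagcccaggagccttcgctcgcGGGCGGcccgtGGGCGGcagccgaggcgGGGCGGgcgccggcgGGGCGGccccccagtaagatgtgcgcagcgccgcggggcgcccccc
Grik5: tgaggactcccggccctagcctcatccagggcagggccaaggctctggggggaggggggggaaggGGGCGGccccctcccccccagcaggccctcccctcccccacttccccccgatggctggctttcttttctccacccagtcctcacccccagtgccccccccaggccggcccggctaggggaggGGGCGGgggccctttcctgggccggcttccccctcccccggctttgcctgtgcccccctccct
Grik4: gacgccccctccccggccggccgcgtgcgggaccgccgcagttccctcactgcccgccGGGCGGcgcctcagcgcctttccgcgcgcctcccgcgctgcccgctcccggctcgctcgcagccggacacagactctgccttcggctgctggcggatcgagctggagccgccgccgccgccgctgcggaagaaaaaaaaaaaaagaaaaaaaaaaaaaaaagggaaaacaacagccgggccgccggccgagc
Gria4: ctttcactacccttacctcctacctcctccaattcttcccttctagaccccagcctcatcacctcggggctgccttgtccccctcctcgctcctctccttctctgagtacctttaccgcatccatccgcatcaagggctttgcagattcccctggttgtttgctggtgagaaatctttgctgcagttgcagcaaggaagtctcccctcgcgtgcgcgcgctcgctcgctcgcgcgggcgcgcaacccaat
The GC box occurred 6 times in the Grik3 window, 2 times in that of Grik5 and 1 time in that of Grik4, and was not among the letters of the Gria4, Gria2 and Grik2 windows. It was thus in 3 of the 6 member windows, against 32.7% of 32851 promoter windows of the same length. CCAAT, searched on both strands, occurred 2 times in the Gria4 window and in none of the other 5 member windows, against 33.8% of all windows. TATAAA, also searched on both strands, was in none of the 6 member windows, against 12.4% of all. The motifs share no letters in an overlap here, and a match describes the sequence only. The GC content was 82.0% for Grik3, 75.2% for Grik5, 69.6% for Grik4 and 58.8% for Gria4. It was 64.8% for Gria2 and 62.8% for Grik2, against a median of 52.4% over all windows. The windows shown were chosen by level difference, and a relation of sequence to that difference was not tested.

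None of the 9 genes passed the test between the levels. Values were compared as log2(intensity + 16), the sample-2 level minus the sample-1 level, with limma fitted over 27022 probe sets and Benjamini-Hochberg adjustment over all of them. Of those 27022 probe sets 168 passed an adjusted p of 0.05, which is 0.622%, and 2933 had an unadjusted p under 0.05, which is 10.9%. Of the 18 member probe sets 16 lay above the filter on low signal (an intensity of about 14.3 over the 4 arrays) and were tested. Among these 0 passed, and 3 had an unadjusted p under 0.05, those of Grik1, Grik3 and Grik5. The 95% intervals of all 16 differences, unadjusted for their number, lay between a ratio of 0.635 and one of 1.97 on this scale. The added 16 pulls the ratios of dim probe sets toward 1, and 11 of the 18 stayed under an intensity of 100 on every array.

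**Figure D1:**
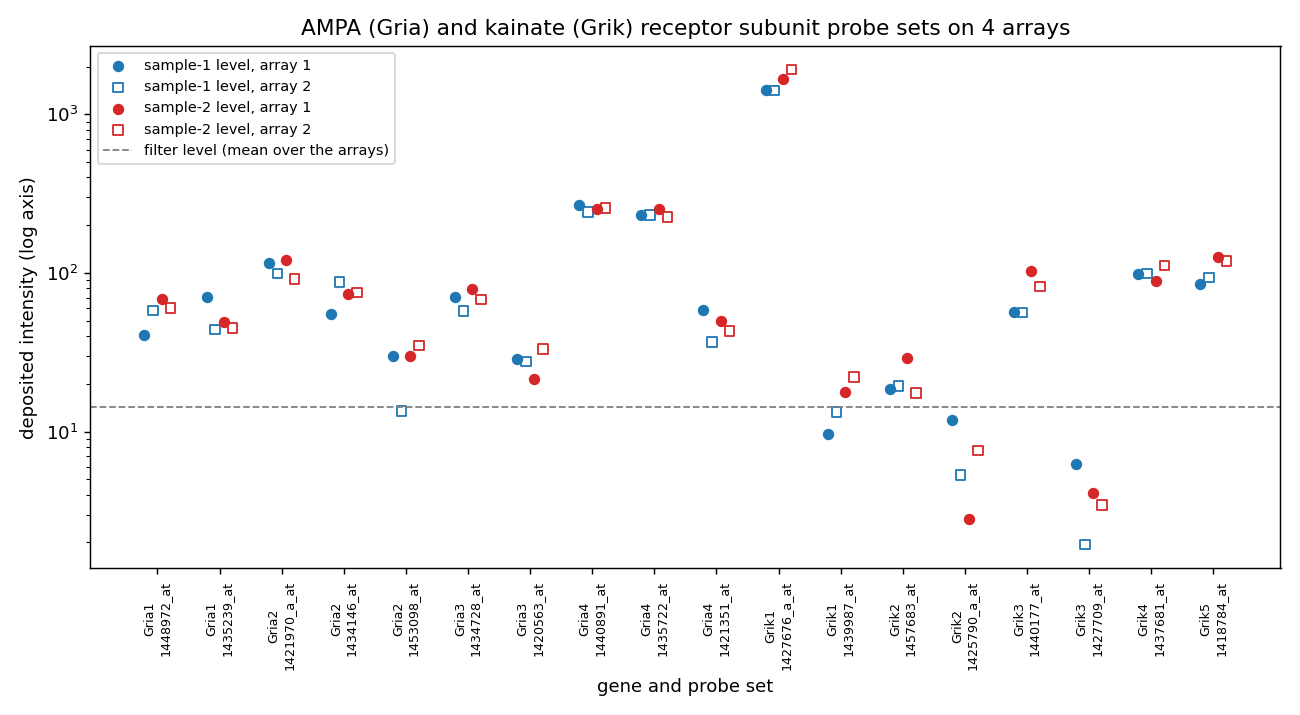
Deposited intensity (log axis) of all 18 member probe sets on the 4 arrays, with filled circles for array 1 and open squares for array 2 of each level, blue for the sample-1 and red for the sample-2 level, and a dashed line at the filter level. The bright Grik1 probe set reads 1417 to 1911, and a probe set each of Grik2 and Grik3 lies below the line on every array.

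Intensities of different probe sets depend on their probes as well as on the RNA, so no order of the subunits is drawn from them. Grik1 measured 1427 and 1417 on the sample-1 arrays, against 1669 and 1911 on the sample-2 arrays with its bright probe set. Both sample-2 arrays lay above both sample-1 arrays. The difference was 0.33 ± 0.08 (log2 difference ± SE, unadjusted p = 0.00210, limma adjusted p = 0.126), a ratio of 1.25 with a 95% interval of 1.11 to 1.42. The suffix of that probe set, _a_at, marks probes shared by several transcripts of a gene. The other Grik1 probe set was dim, with 9.68 and 13.3 on the sample-1 arrays, against 17.6 and 22.2 on the sample-2 arrays. It passed the filter through the sample-2 level, where it is higher, so its separation adds no support, and its difference was 0.39 ± 0.27 (adjusted p = 0.666).

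Grik3, whose product forms kainate receptors of low glutamate sensitivity, measured 56.8 and 56.4 on the sample-1 arrays, against 102 and 82.3 on the sample-2 arrays. The arrays of the levels did not overlap, while the sample-2 arrays differed from each other by more than the sample-1 arrays did. The difference was 0.57 ± 0.17 (unadjusted p = 0.00534, limma adjusted p = 0.191), a ratio of 1.49 with a 95% interval of 1.15 to 1.91. A second Grik3 probe set measured 6.28, 1.94, 4.11 and 3.44 on the same arrays. It lay under the filter on all of them and was not tested, so the Grik3 value rests on a single probe set.

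Grik5, a partner subunit, has 1 probe set, which measured 85.3 and 93.5 on the sample-1 arrays, against 127 and 119 on the sample-2 arrays. Again the levels did not overlap. The difference was 0.40 ± 0.14 (unadjusted p = 0.0166, limma adjusted p = 0.303), a ratio of 1.32 with a 95% interval of 1.06 to 1.64. Grik4, the other partner subunit, measured 98.7 and 99.4 on the sample-1 arrays, against 88.6 and 111 on the sample-2 arrays. Its sample-2 arrays fell on either side of the sample-1 arrays, and the difference was 0.01 ± 0.15 (adjusted p = 0.994), with a 95% interval of 0.795 to 1.27 for the ratio.

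Grik2 was dim on both of its probe sets. The tested one measured 18.5 and 19.3 on the sample-1 arrays, against 29.1 and 17.6 on the sample-2 arrays, which overlapped, and differed by 0.16 ± 0.26 (adjusted p = 0.884). The other measured 11.9, 5.35, 2.82 and 7.62 and lay under the filter. With no detection calls in the values, such intensities cannot be told from background. A change in Grik2 was therefore not measurable at this signal.

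Of the 8 kainate probe sets 6 lay above 0 and 2 below it when fitted without the filter, where the untested ones of Grik2 and Grik3 differed by -0.21 and -0.02. Both sample-2 arrays lay above both sample-1 arrays on 4 of the 6 tested ones, the dim Grik1 probe set among them, so the counts are a description and support nothing. Over all tested probe sets 51.1% lay above 0, and 21.1% had both sample-2 arrays higher. In the 16 tested member probe sets of both kinds 5 had arrays that did not overlap between the levels, all of them higher at the sample-2 level, against 41.2% of all probe sets without overlap in either direction. With a gene represented by its brightest probe set, the median difference was 0.33 for the 5 kainate genes, which is the Grik1 value. It was 0.08 for the 4 AMPA genes, against -0.01 for all 13543 genes tested. The values depend on that choice of probe set. With the probe sets of a gene averaged, Grik1 to Grik5 differed by 0.36, -0.03, 0.28, 0.01 and 0.40. Gria1 to Gria4 then differed by 0.05, 0.15, 0.06 and 0.01. Whether the level differences of kainate and AMPA subunits differ from each other was not tested.

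**Figure D2:**
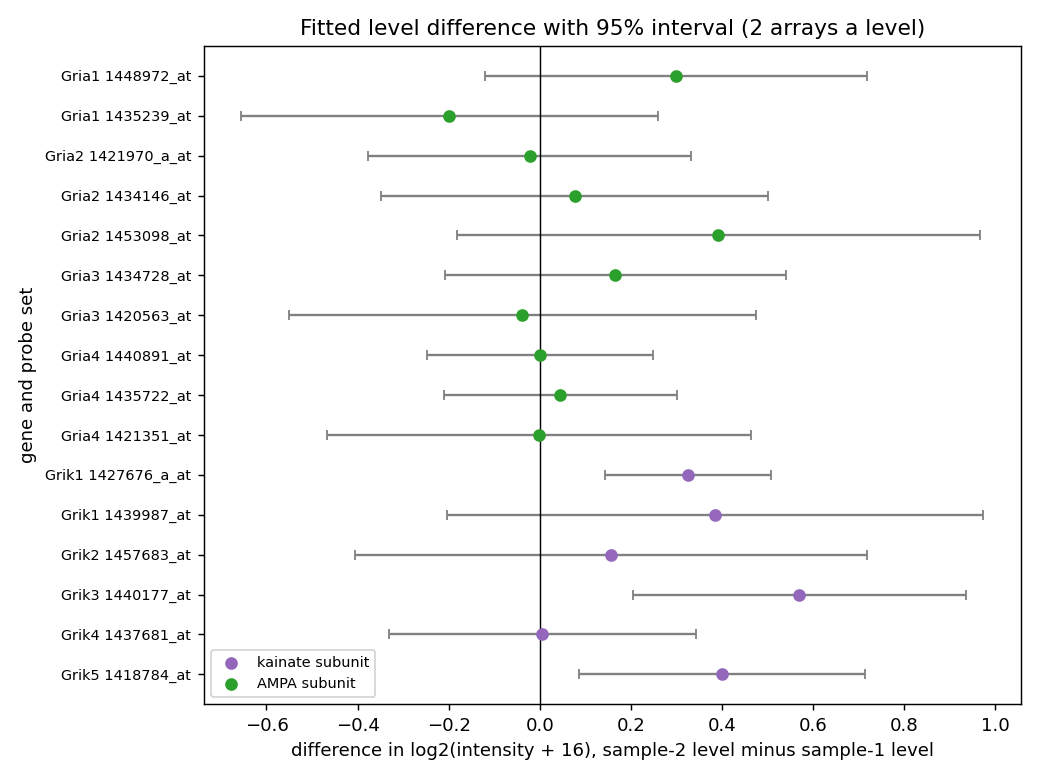
Difference in log2(intensity + 16), sample-2 level minus sample-1 level, with its unadjusted 95% interval from limma for the 16 tested member probe sets (purple for kainate, green for AMPA subunits). The intervals of the bright Grik1 probe set, Grik3 and Grik5 lie above 0, no probe set passed after adjustment, and the narrowest AMPA intervals are those of the 2 brightest Gria4 probe sets.

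Of the 10 tested AMPA probe sets 6 lay above 0 and 4 below it, and the arrays of the levels were apart on 1 of them. Gria4 gave the most precise values. Its brightest probe set measured 269 and 243 on the sample-1 arrays, against 254 and 258 on the sample-2 arrays, so that both sample-2 values lay between the sample-1 values. The difference was 0.00 ± 0.11 (limma adjusted p = 0.999), with a 95% interval of 0.842 to 1.19 for the ratio. A second Gria4 probe set measured 231 and 232 against 254 and 225, a difference of 0.05 ± 0.12 with an interval of 0.864 to 1.23. The third, at 58.2 and 36.7 against 50.1 and 43.0, differed by -0.00 ± 0.21, with a wider interval of 0.724 to 1.38.

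Gria2, whose product sets the calcium permeability of AMPA receptors, has 3 probe sets. The brightest measured 116 and 99.4 on the sample-1 arrays, against 121 and 91.5 on the sample-2 arrays, a difference of -0.02 ± 0.16 (adjusted p = 0.980). The middle one measured 55.1 and 88.0 against 74.0 and 75.4 and differed by 0.08 ± 0.19. On the brightest, the spread within each level was larger than the difference between the levels. On the middle one this held for the sample-1 level only. The dimmest measured 29.9 and 13.5 against 29.8 and 35.0 and differed by 0.39 ± 0.26 (adjusted p = 0.642), and without the low reading of sample-1 array 2 the difference was 0.07. Arrays of this kind do not report RNA editing, so the edited share of Gria2 was not measured.

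Gria1, an AMPA subunit that traffics to synapses during plasticity, gave opposite signs on its 2 probe sets. The brighter measured 40.8 and 58.2 on the sample-1 arrays, against 68.1 and 59.96 on the sample-2 arrays, without overlap, and differed by 0.30 ± 0.19 (adjusted p = 0.624), or by 0.11 without sample-1 array 1 and 0.49 without sample-1 array 2. The other measured 70.7 and 44.1 against 48.8 and 45.0 and differed by -0.20 ± 0.21 (adjusted p = 0.802). Sample-1 array 1 was the lowest array on the first and the highest on the second. Gria3 measured 70.2 and 57.6 against 79.0 and 68.1 on its brighter probe set, with overlap, and differed by 0.17 ± 0.17 (adjusted p = 0.796). Its dimmer probe set, at 28.6 and 27.7 against 21.6 and 33.2, differed by -0.04 ± 0.24. All 4 AMPA genes had probe sets of both signs, for Gria4 with values within 0.05 of 0.

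**Figure D3:**
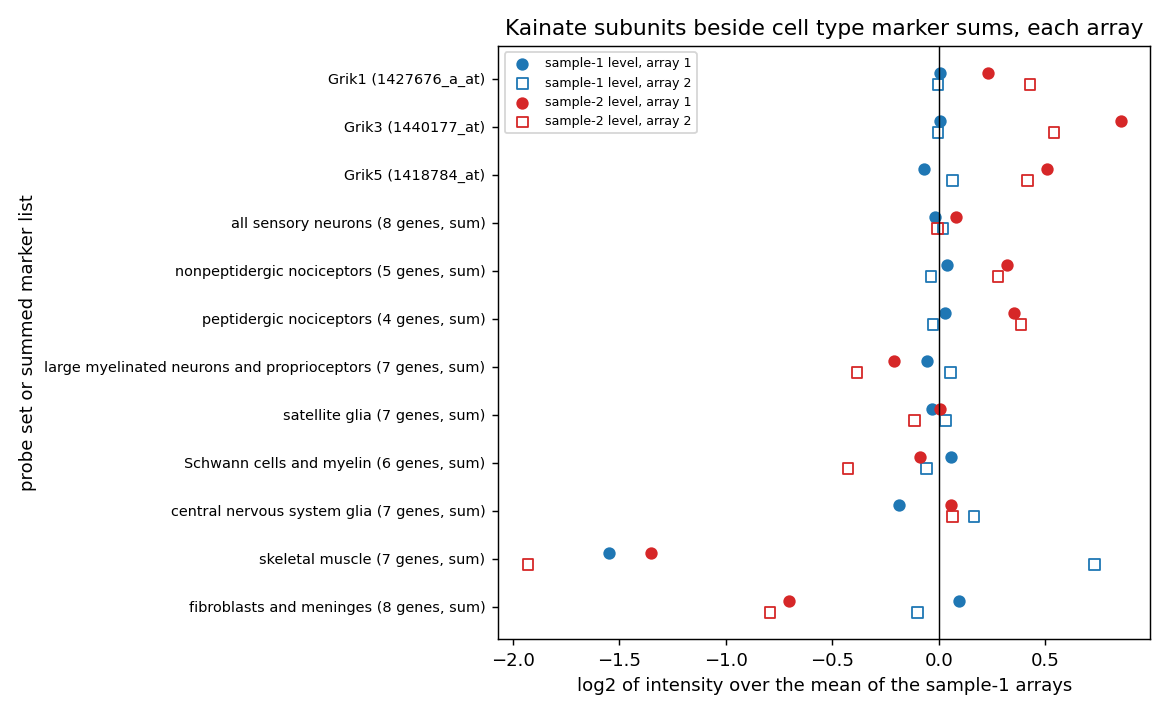
Log2 of intensity over the mean of the sample-1 arrays for 3 kainate subunit probe sets and for the summed intensity of 9 cell type marker lists, for each array (symbols as for the intensities by probe set). The nociceptor sums lie to the right at the sample-2 level together with Grik1, Grik3 and Grik5. Those of large myelinated neurons, Schwann cells and fibroblasts lie to the left, and the summed muscle markers stand out on sample-1 array 2.

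The labelled tissue was checked by markers of sensory neurons, and cell type markers were read beside the kainate values. The 8 sensory neuron genes summed to between 36645 and 39299.7 on the 4 arrays, with Nefl, a neurofilament, at 8630.3 and 8552 (means of the sample-1 and sample-2 arrays) and Uchl1, a neuronal deubiquitinase, at 6958 and 6998. Such a sum mostly reflects its brightest genes. Of these 8 genes 6 had a higher mean at the sample-2 level and 2 a lower one. Among the 6 were Isl1 at 1423 and 1598 and Pou4f1 at 480 and 553, both named after their values were seen. The 5 nonpeptidergic nociceptor genes summed to 8666 and 8238 on the sample-1 arrays, against to 10562 and 10249.5 on the sample-2 arrays, all 5 with a higher mean there, and P2rx3 measured 2696 and 2994 and Scn11a 2082 and 2743. The 4 peptidergic nociceptor genes summed to 4786 and 4601 against 5985 and 6132, with Tac1 at 3487 and 4376 and Trpv1 at 518 and 875. As log2 ratios of the sums these lists differed by 0.30 and 0.37. The fitted differences were 0.33 for the bright Grik1 probe set, 0.57 for Grik3 and 0.40 for Grik5. For the other lists the ratio was 0.04 for all sensory neurons, -0.295 for large myelinated neurons and -0.05 for satellite glia. It was -0.25 for Schwann cells, -0.75 for fibroblasts and meninges, -1.61 for skeletal muscle and 0.06 for central nervous system glia. The 7 genes of large myelinated neurons summed to 8924 and 9635 against 8011 and 7113, with Nefh at 5692 and 4918 and Pvalb at 1484 and 461. Of these 7 genes 3 had a higher mean at the sample-2 level, among them Ntrk2, a neurotrophin receptor, at 467 and 656 and Calb1, a calcium-binding protein, at 724 and 851, both named after their values were seen. In RNA of whole ganglia fewer cells of a type and less RNA per cell cannot be told apart, and the part of these neuron classes in the kainate values was not tested.

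Among other cells, 8 fibroblast and meningeal genes had sums of 12820.4 to 14688 on the sample-1 and 7941 to 8445 on the sample-2 arrays, with Ptgds at 4989.7 and 2203 and Dcn at 4448 and 3274. All 8 had a lower mean at the sample-2 level. The 6 Schwann cell genes had sums of 16230 to 17579 and 12571.5 to 15908, with Pmp22 at 8082 and 7047 and Mbp at 7549 and 6741. All 6 had a lower mean at the sample-2 level. The dimmer Pmp2, named after its values were seen, measured 869 and 172. The 7 satellite glia genes summed to between 12206 and 13507 on all arrays, with Apoe at 5854 and 5789 and Fabp7 at 3540.03 and 3445. Of these 7 genes 1 had a higher mean at the sample-2 level and 6 a lower one. Sox10, named after its values were seen, was among the 6, at 581 and 439. The 7 genes of central glia, which a dissection could carry from the spinal cord, summed to 149 to 190.5, with 3 of the 7 under the filter, Aqp4 at 88.7 and 87.8 and Slc1a2 at 30.5 and 35.5. The 7 skeletal muscle genes summed to 5690.4 on sample-1 array 2 and to 901 to 1346 on the other arrays, with Acta1 at 1086 and 356 and Ckm at 602 and 193. Without sample-1 array 2 the differences were 0.32 for Grik1, 0.57 for Grik3 and 0.46 for Grik5. With each array divided by the mean level of the 8 sensory neuron genes, a setting added after the data were seen, they were 0.25 ± 0.09, 0.51 ± 0.17 and 0.34 ± 0.15, with adjusted p of 0.263, 0.210 and 0.370.

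Of 57 other genes of glutamate signalling 48 had a probe set with that single symbol and 39 were tested. With a gene again represented by its brightest probe set, 0 of the 39 passed in limma, against 0.842% of all 13543 genes, while 5 were higher and 1 was lower at an unadjusted p under 0.05, against 12.3% of all genes in either direction. Their median difference was -0.06, beside -0.01 for all genes. The auxiliary subunits of kainate receptors, which slow the channel's closing, were both tested and went opposite ways. Neto2 measured 135 and 108 on the sample-1 arrays, against 179 and 182 on the sample-2 arrays, a difference of 0.52 ± 0.14 (adjusted p = 0.145). Neto1 measured 74.1 and 60.3 against 55.0 and 47.2, a difference of -0.31 ± 0.18 (adjusted p = 0.583). Neither pair of levels overlapped, and neither gene passed. The remaining tested probe sets had the same signs, with 0.19 for Neto2 and -0.21 and -0.50 for Neto1.

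**Figure D4:**
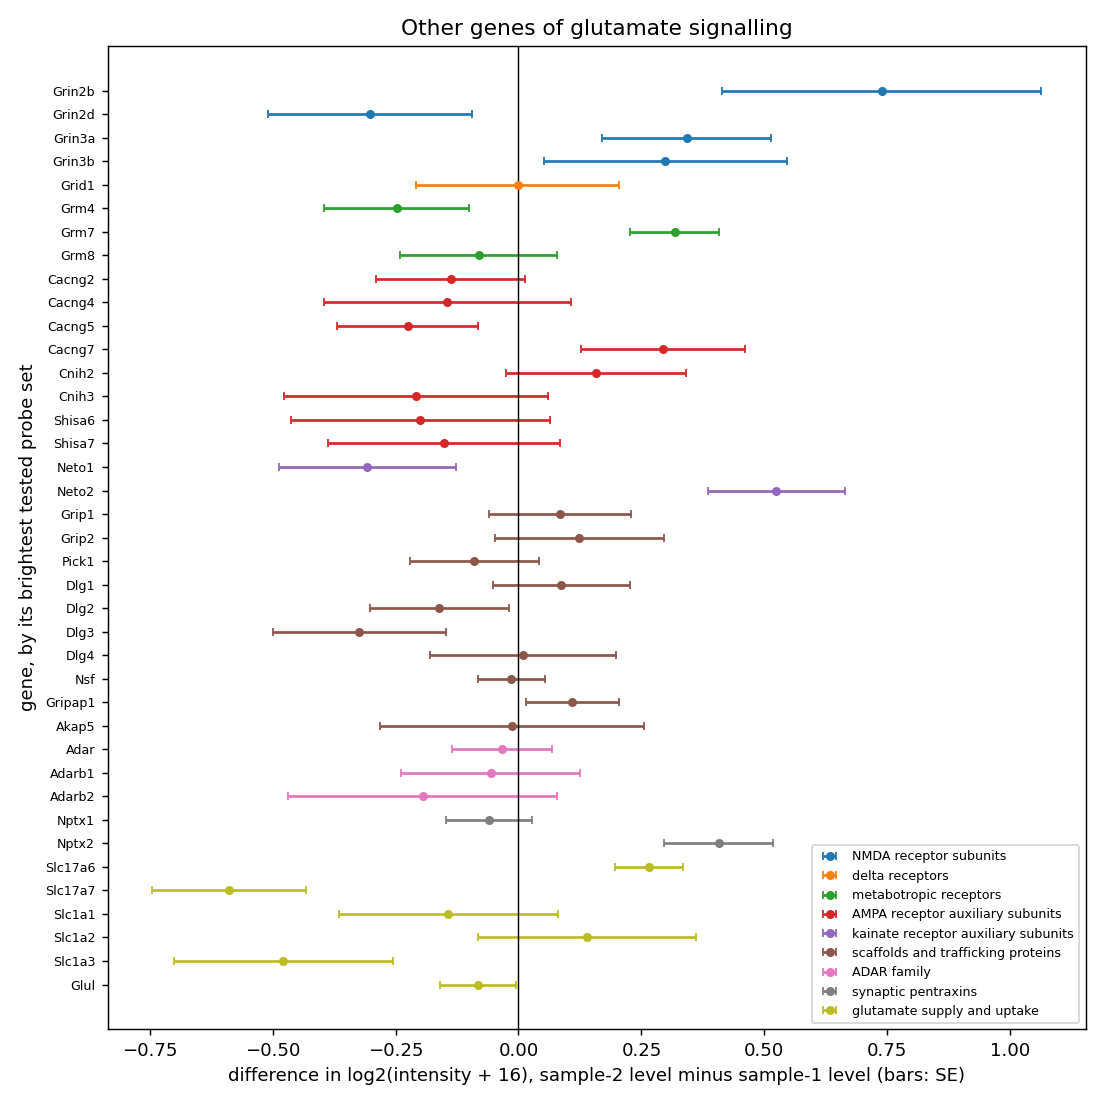
Difference in log2(intensity + 16), sample-2 level minus sample-1 level, with its SE, for the 39 tested genes of glutamate signalling by their brightest probe set, coloured by role. Genes on both sides of 0 lie farther from it than their SE. Above it these include Neto2, Nptx2, Grm7, Slc17a6, Grin2b and Grin3a, and below it Slc17a7, Slc1a3, Neto1 and Dlg3. None of the 39 passed after adjustment.

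Among the 8 tested auxiliary subunits of AMPA receptors 2 lay above 0 and 6 below it. The largest differences were those of Cacng7 (69.4 ± 8.66 and 88.7 ± 12.2, SD, n = 2) and Cacng5 (144 ± 18.1 and 121 ± 10.2), proteins that associate with AMPA receptors, with adjusted p of 0.571 and 0.621 in limma. Of 10 scaffolds and trafficking proteins 5 lay above and 5 below 0, with Dlg3 at 62.2 and 46.5 and Dlg2 at 115 and 101 the farthest from 0 (adjusted p = 0.548 and 0.748). The 3 tested genes of the ADAR family included Adarb1, an RNA editing enzyme that acts on the Gria2 transcript, at 56.4 and 53.5, and Adarb2, for which no editing activity is known, at 18.2 and 13.9, which differed by -0.06 ± 0.18 and -0.19 ± 0.27. Of the synaptic pentraxins, secreted proteins that gather AMPA receptors, Nptx2 measured 445 and 369.98 on the sample-1 arrays, against 565 and 522 on the sample-2 arrays (0.41 ± 0.11, adjusted p = 0.153), and Nptx1 differed by -0.06 ± 0.09. A dimmer Nptx2 probe set measured 58.3 and 89.0 against 93.3 and 79.5, with overlap, and differed by 0.21 ± 0.19. The dimmer Nptx1 probe set differed by -0.15 ± 0.10.

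Of the 4 tested NMDA receptor subunits 3 lay above 0, and Grin2b (17.0 and 1.99 against 21.2 and 28.5) and Grin3a (60.9 and 56.2 against 70.2 and 87.4) differed by 0.74 ± 0.32 and 0.34 ± 0.17 (adjusted p = 0.437 and 0.505). Grin2b lay below the filter level on sample-1 array 2, and differed by 0.30 without that array. Its mean of 9.51 at the sample-1 level lay under the filter level, so it was tested only through the sample-2 level, and the other tested Grin2b probe set differed by -0.18. The 1 tested delta receptor, Grid1, differed by -0.00 ± 0.21. Among 3 metabotropic receptors Grm7, a presynaptic receptor, measured 536 and 571 against 693 and 694 (0.32 ± 0.09, adjusted p = 0.173), while a far dimmer probe set of the gene differed by -0.67, and Grm4 differed by -0.25 ± 0.15. Of the 6 genes of glutamate supply and uptake, the vesicular transporter Slc17a7 measured 152 and 187 against 121 and 94.0 (-0.59 ± 0.16, adjusted p = 0.142) and the glial uptake transporter Slc1a3 differed by -0.48 ± 0.22 (adjusted p = 0.469). That Slc1a3 probe set has the suffix _x_at, so its probes can match other transcripts, and the other tested Slc1a3 probe sets differed by -0.08 and -0.09. Slc17a6, the other vesicular transporter, named after its values were seen, measured 1936 and 1971 against 2396 and 2308 (0.27 ± 0.07, adjusted p = 0.138). Arrays of the levels did not overlap for either transporter, and neither passed.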

How the data were processed

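The authors deposited 1 linear intensity for each probe set, measured per the labels from total RNA on Affymetrix mouse arrays. The mean of each array after trimming its highest and lowest 2% was 150.0, which shows a common scaling of the deposited intensity. The sources used here do not name the software or the steps. No pair of arrays held identical values. Precision is limited by there being 4 arrays. The 64 control probe sets were left out, and those with a mean log2 value under the 40th percentile. The rest were fitted on log2(intensity + 16) with limma 3.58.1 (R 4.3.3, lmFit, eBayes with an intensity trend) and Benjamini-Hochberg adjustment. There were 2 residual and 9.71 prior degrees of freedom. The variance of a probe set was thus drawn more from others of similar intensity than from its own 4 arrays. The fit was also run on simulated data, drawn from the variance model that it assumes. That run therefore cannot check the model on these arrays. Genes were named from platform annotation entries with a single symbol, and all 9 member symbols matched RefSeq gene records. A gene was represented by its brightest tested probe set. The rule named all members, the 2 signalling genes of each role with the largest difference and any that passed, and the 2 brightest markers of each list. Members, lists and rules were chosen with earlier results of these data known. Alternatives were pseudocounts of 1 and 64, other filters, quantile normalization, median centring, the array number as a block, no trend, gene means, omitting shared-probe suffixes and leaving out each array.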

Additional observations from a re-analysis of the deposited data

How the results depend on the processing

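The number of AMPA and kainate probe sets past the threshold was 0 under every alternative but the array number as a block, where it was 1, the bright Grik1 probe set (0.33 ± 0.08, limma adjusted p = 0.0172), and so was the number of member genes, 0 and 1. The other signalling genes also gave 0 under every alternative but the block, where 4 passed, Nptx2, Slc17a6, Slc17a7 and Neto2. The labels do not say whether equally numbered arrays share anything but a number. Deviations of such arrays from their level correlated at 0.03 across probe sets. With 2 arrays a level, crossed numbers give the same value with the opposite sign. The correlation therefore cannot decide whether the numbers pair the samples. Over all probe sets 168 passed, against 4 without the filter, 104 with median centring, 793 with the block, 1 without the intensity trend and 254 with the neuronal scaling, which was added after the data were seen. Leaving out each array in turn gave 102 to 241, the lowest without sample-2 array 2. The causes of these changes were not tested. The neuronal scaling split the probe sets that passed into 49 higher and 205 lower, against 60 and 108. Without the intensity trend, the bright Grik1 probe set had an unadjusted p of 0.045 and an adjusted p of 0.544 in limma. With 1 array left out, the adjusted p lay between 0.0554 and 0.458 for the bright Grik1 probe set, between 0.241 and 0.494 for Grik3 and between 0.466 and 0.563 for Grik5, and the difference from 0.23 to 0.42, from 0.44 to 0.70 and from 0.34 to 0.46.

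Of 217 values of member probe sets under other settings 198 kept their sign and their side of the threshold, 1 passed and 18 changed sign. The other filters, the block, the fit without a trend and the omission of suffixes cannot change a difference here. Signs under those settings agree by construction, so the count overstates how stable the signs are. The brightest Gria4 probe set turned to -0.0130 with median centring and -0.0674 with the neuronal scaling. The next turned to -0.0222 with the neuronal scaling and the dimmest to 0.0058 with a pseudocount of 1. Grik4 turned to -0.0079 and -0.0560 with median centring and the neuronal scaling. With the probe sets of a gene averaged, Gria2 turned to 0.149 and Grik2 to -0.0271, and Grik3 was 0.28. With 1 array left out, the ranges that crossed 0 were -0.464 to 0.0667 for the dimmer Gria1 probe set, -0.20 to 0.15 and -0.20 to 0.35 for the 2 brighter ones of Gria2, -0.23 to 0.16 for the dimmer one of Gria3, -0.0703 to 0.0716, -0.0345 to 0.126 and -0.25 to 0.24 for those of Gria4, -0.0561 to 0.370 for Grik2 and -0.14 to 0.15 for Grik4. Low signal limits Grik2, the second Grik3 probe set and the dim Grik1 probe set.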
